A study of Mus musculus with 4 samples.

Results

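Sites that kept their place between 2 stages of striatal development are described here: Sp9 peaks that lay more than 5 kb and at most 50 kb from the nearest transcription start site (TSS) and that were listed at the same spot in the E13.5 and E16.5 lists. They were selected by distance and by recurrence: the other list had to give the same gene a peak whose signed distance differed by at most 200 bp. This rule kept 757 of the 5847 peaks of the E13.5 list and, at E16.5, 754 of its 6022 peaks. Over peaks at any distance, 57.9% recurred in the E13.5 list and 56.2% in the later one by the same measure. The study mapped Sp9 binding by ChIP-seq, which sequences the DNA pulled down with a protein by an antibody (here rabbit anti-Sp9), in basal ganglia dissected from CD1 mouse embryos at embryonic day 13.5 and embryonic day 16.5. All embryos were wild type, and the series has 1 ChIP library and 1 input library without antibody per stage. The deposited lists give each peak as a signed distance from named genes on the mm9 build, without position, height or read depth. No stage had a second ChIP library to check against, so the p-values below compare peaks within 1 list by counting error only, and no test between the stages was made. The tissue is a mixture of progenitors and neurons of several kinds, so the cells in which a site was bound cannot be told apart.

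The zinc finger protein Sp9 belongs to the SP/KLF transcription factors, which bind GC-rich elements. It is made in the lateral ganglionic eminence, the germinal zone of the striatum, and is needed for striatal neurons that carry the dopamine receptor Drd2. Sites some distance from a promoter are where many enhancers lie, and developmental regulators often have several of them on both sides of the gene. A negative distance here means upstream of the TSS, and a positive one downstream, which may be inside the gene or beyond its end.

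The lists hold no coordinates for the peaks themselves, so their own sequence is not shown. Among the genes named below, Irf2bpl, Lyrm9 and Pou3f2 also carried a peak in the 250 bases before the TSS in both lists and had 1 entry each in the RefSeq promoter table, so theirs are printed as promoters on which the data bear. Dcx and Elavl4 had such peaks too, but several entries each. Each is shown 5′ to 3′ up to the base before the RefSeq start (build GRCm38.p6), with matches to GGGCGG on either strand, the core of the GC box that SP factors recognise, in capitals. The Irf2bpl stretch is at chr12:86884815-86885064 on the minus strand, the Lyrm9 stretch at chr11:78826345-78826594 on the plus strand and the Pou3f2 stretch at chr4:22488367-22488616 on the minus strand.
Irf2bpl: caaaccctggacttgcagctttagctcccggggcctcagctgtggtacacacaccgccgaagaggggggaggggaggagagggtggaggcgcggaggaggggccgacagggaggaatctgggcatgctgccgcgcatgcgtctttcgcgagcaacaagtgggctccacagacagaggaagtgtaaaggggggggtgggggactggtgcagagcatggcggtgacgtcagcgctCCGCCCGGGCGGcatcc
Lyrm9: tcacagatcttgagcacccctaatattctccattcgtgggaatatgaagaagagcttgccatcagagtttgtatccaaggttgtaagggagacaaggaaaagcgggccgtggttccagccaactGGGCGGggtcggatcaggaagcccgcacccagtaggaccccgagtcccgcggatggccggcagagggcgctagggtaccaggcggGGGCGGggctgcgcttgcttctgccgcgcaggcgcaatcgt
Pou3f2: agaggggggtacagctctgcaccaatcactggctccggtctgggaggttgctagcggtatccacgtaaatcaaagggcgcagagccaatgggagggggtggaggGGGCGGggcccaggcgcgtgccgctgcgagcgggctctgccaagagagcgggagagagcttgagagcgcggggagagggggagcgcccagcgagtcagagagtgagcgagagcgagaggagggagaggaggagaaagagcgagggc

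Irf2bpl had 2 matches, Lyrm9 2 and Pou3f2 1. The promoter peak of Irf2bpl lay 151 bp upstream of the TSS at E13.5 and 89 bp upstream at E16.5, that of Lyrm9 181 and 1 bp upstream, and that of Pou3f2 204 and 246 bp upstream. These distances refer to the starts used for the mm9 lists, which may differ from the RefSeq starts. Of all 32851 promoter entries, 32.7% held the motif in the same window, against 48.9% of the 634 entries of the 471 nearest genes found in the table. That difference was not tested, and no share is given for genes of non-recurring peaks. Of the nearest genes, 17 had a peak in that window in both lists. A match describes the letters only, and the distal peaks were chosen without it.

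The recurring peaks were spread over the whole range from 5 to 50 kb and lay more often downstream than upstream of the nearest TSS. Their median distance was 25.4 kb in either list, with quartiles at 14.6 and 36.7 kb. Upstream peaks numbered 312 of 757 at E13.5 (41.2%, 95% Wilson interval 37.8 to 44.8). The E16.5 list had 312 of 754 (41.4%, 37.9 to 44.9). Non-recurring peaks of the same distance range lay upstream in 40.7% of 550 cases at E13.5 and in 44.5% of 445 at E16.5. The difference was 0.49 percentage points at E13.5 (interval -4.92 to 5.85, adjusted p = 0.865 by a two-sided Fisher's exact test with Benjamini-Hochberg adjustment over 6 tests) and -3.12 points at E16.5 (-8.91 to 2.66, adjusted Fisher's exact p = 0.456). No difference in side was detectable with this number of peaks, and the intervals leave room for several points in either direction.

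**Figure D1:**
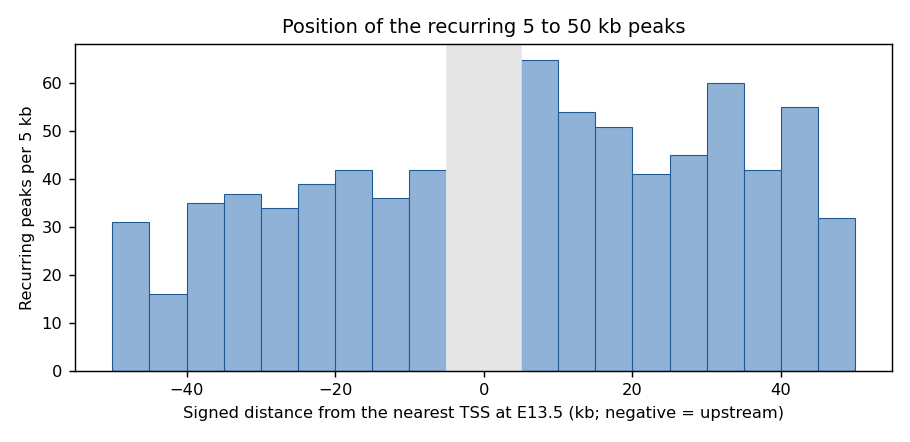
Number of recurring peaks per 5 kb (y axis) by signed distance in kb from the nearest TSS at E13.5 (x axis, negative values upstream; the grey band is the range the rule leaves out). The 65 peaks 5 to 10 kb downstream and the 42 peaks 5 to 10 kb upstream flank the gap, and peaks continue to both ends of the range.

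Most of these sites were assigned to 2 genes, and the other gene usually lay farther than 50 kb away. The authors' assignment extended gene domains up to 1000000 bp, so most peaks more than 5 kb from any TSS were reached from 2 genes. The number of assigned genes, also in the comparison below, thus mostly follows from the annotation and is not a measure of binding. Of the members at E13.5, 714 were assigned to 2 genes and 43 to 1 gene. At E16.5 the numbers were 712 and 42. The other gene had a median distance of 105.0 kb in either list (quartiles 54.2 and 228.0 kb at E13.5), and in 152 of the 714 cases (21.3%) it also lay within 50 kb. Among these 714 peaks, 145 were upstream of both genes, 218 downstream of both, and 351 upstream of one and downstream of the other. For non-recurring peaks, assignment to at least 2 genes was seen in 92.2%, against 94.3% of members, at E13.5 (difference 2.14 points, -0.58 to 5.06, adjusted Fisher's exact p = 0.425) and 92.6% against 94.4% at E16.5 (1.85 points, -0.96 to 5.0, adjusted Fisher's exact p = 0.436). Some peak numbers are divided into lettered entries. With each entry counted as a peak the differences passed the threshold, at 5.56 and 9.52 points (adjusted Fisher's exact p = 0.000388 and 3.11e-08), and such entries share 1 position.

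Within the 200 bp that the rule allowed, most pairs lay much closer together. Each of the 757 peaks at E13.5 had its own partner at E16.5. All were matched at their nearest gene, to which the matching gave ties. The listed positions differed by a median of 34.0 bp, by at most 50 bp in 482 pairs (63.7%), by at most 100 bp in 669 (88.4%), and not at all in 11. Positions in E16.5 had the larger signed distance in 344 pairs and the smaller in 402. The span between the start sites of the 2 genes, which the annotation sets, was the same in both lists for all 714 pairs with 2 genes, so distances from either list can be set side by side. The rule limited the difference to 200 bp, so its size is a description of the members. The pairs nearest to that limit were at Gm9874 (196 bp apart) and Acsf3 (193 bp), and the closest ones left out were at Glis2 (203 bp) and Cap2 (206 bp).

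**Figure D2:**
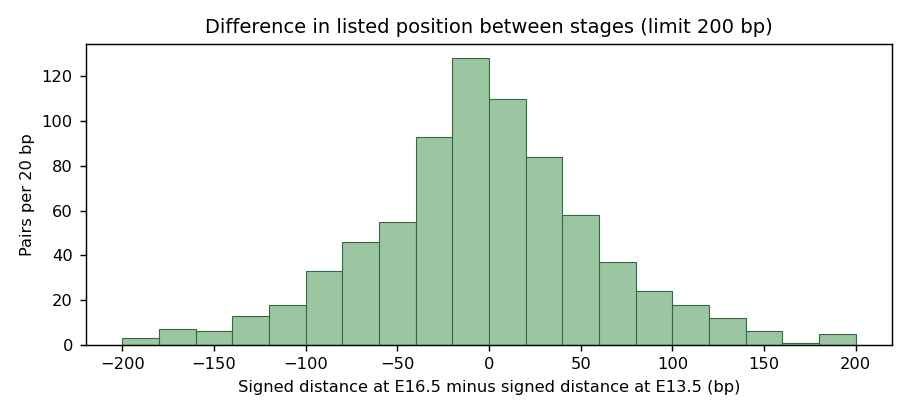
Pairs of peaks per 20 bp (y axis) by the signed distance at E16.5 minus that at E13.5 in bp (x axis). Most of the 757 pairs sit near 0, with 482 of them within 50 bp.

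Peaks at the borders of the range show how sharp the choice is. At E13.5 the recurring peaks nearest to 5 kb were those of Wwc2 (5012 bp) and Col14a1 (5120 bp) inside, and of Atrn (4947 bp) and Nedd9 (4946 bp) outside. Ankrd7 (49997 bp) and Etv5 (49971 bp) were the last inside 50 kb, and Igbp1b (50097 bp) and Matn2 (50167 bp) the next outside. At E16.5 the peaks at Gm10722 (5018 bp) and Mpp2 (5091 bp) were just inside the lower limit, and those at Wwc2 (4984 bp) and Atrn (4977 bp) just outside. At the upper limit Etv5 (49951 bp) and Hcrtr2 (49930 bp) were inside at E16.5, and Sufu (50003 bp) and Ankrd7 (50031 bp) outside. The 3 E13.5 peaks whose E16.5 partner crossed a border, at Wwc2, Sufu and Ankrd7, account for the difference between 757 and 754.

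Recurrence at this distance was close to that of the whole list at E13.5 and somewhat above it at E16.5. Of the 1307 peaks at 5 to 50 kb at E13.5, 57.9% recurred (55.2 to 60.6), against 57.9% of all peaks, 61.9% of peaks within 5 kb and 56.3% of peaks beyond 50 kb. Of the 1199 such peaks at E16.5, 62.9% recurred (60.1 to 65.6), between 34.9% within 5 kb and 70.9% beyond 50 kb, and against 56.2% of all peaks. Across the range, the share at E13.5 stayed between 55.2% and 60.2%. At E16.5 it was 55.2% at 5 to 10 kb (48.1 to 62.1) and 69.3% at 30 to 40 kb (63.4 to 74.7). These shares are the measure that chose the members and are given without a test.

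**Figure D3:**
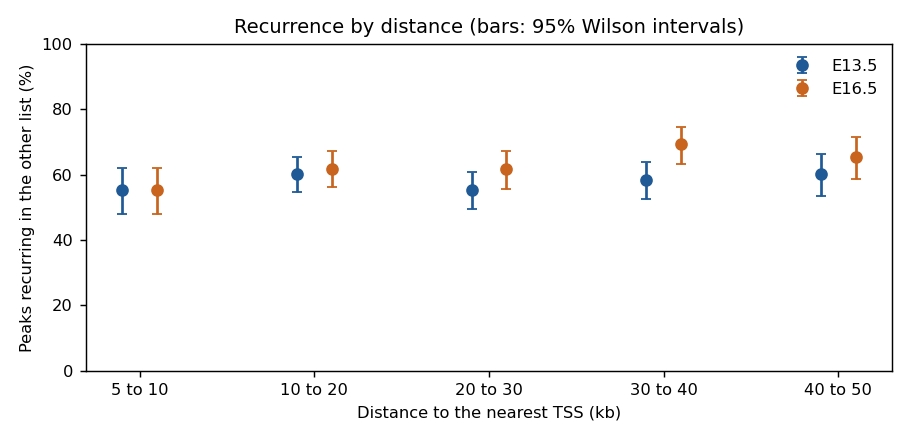
Share of 5 to 50 kb peaks that recur in the other list (y axis, %) by distance to the nearest TSS in kb (x axis), for E13.5 (blue) and E16.5 (orange). Points are shares and bars are 95% Wilson intervals. The E16.5 share is 55.2% in the nearest class and 69.3% at 30 to 40 kb, and the E13.5 shares lie between 55.2% and 60.2%.

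The nearest genes of the members included several homeobox genes of the ganglionic eminence. Of all 21900 protein-coding genes, 2.87% were the nearest gene of a member at E13.5 and 2.86% at E16.5. For non-recurring peaks of the same range these shares were 2.11% and 1.67%. Of 14 progenitor regulators, 5 were the nearest gene of a member at both stages (35.7%, 16.3 to 61.2), among them Dlx1, Dlx2, Dlx6 and Tle1. The list had 10 members at a median distance of 9.55 kb. Because the rule pairs members across the stages, a count at both stages follows from the rule, here and for the lists below. Non-recurring peaks reached 6 of the 14 genes in the E13.5 list and 2 of them in the E16.5 list. Genes with distant neighbours are the nearest gene over a longer stretch, and how much of any list's share comes from that was not tested.

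The neighbouring homeobox genes Dlx1 and Dlx2, which drive GABAergic differentiation, had 5 members around them. Upstream members lay 15518 and 10545 bp upstream of the Dlx1 TSS at E13.5 and 15508 and 10527 bp upstream at E16.5. A further 3 members fell into the 18641 bp between the starts of Dlx1 and Dlx2. From Dlx1 they were 7780, 10081 and 13127 bp downstream at E13.5 and 7966, 10158 and 13132 bp at E16.5. The interval between these genes is known for forebrain enhancers, with which the peaks could not be matched without coordinates. Other peaks in the range had no partner: 8884 bp upstream of Dlx1 and 35690 bp upstream of Dlx2 at E13.5, and 6981 bp downstream of Dlx1 at E16.5.

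The sister pair Dlx5 and Dlx6 also had members between the start sites. Their starts were 18751 bp apart, and members lay between them, 6305 and 8542 bp downstream of Dlx6 at E13.5 and 6208 and 8566 bp at E16.5. Seen from Dlx5 these were 12446 and 10209 bp downstream at E13.5 and 12543 and 10185 bp at E16.5. In the RefSeq gene order, Slc25a13, which encodes a mitochondrial aspartate-glutamate carrier, is separated from Dlx6 by Sem1 alone among protein-coding genes. It had 3 members of its own, at 29233 and 18823 bp downstream and 7212 bp upstream at E13.5, and at 29126, 18912 and 7259 bp at E16.5.

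Tle1, a Groucho corepressor, had members 17577 and 42294 bp downstream at E13.5 and 17595 and 42303 bp at E16.5. The positions of both sites differed by at most 18 bp between the lists. Another peak of Tle1 in the range, 32185 bp downstream at E13.5, had no partner.

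**Figure D4:**
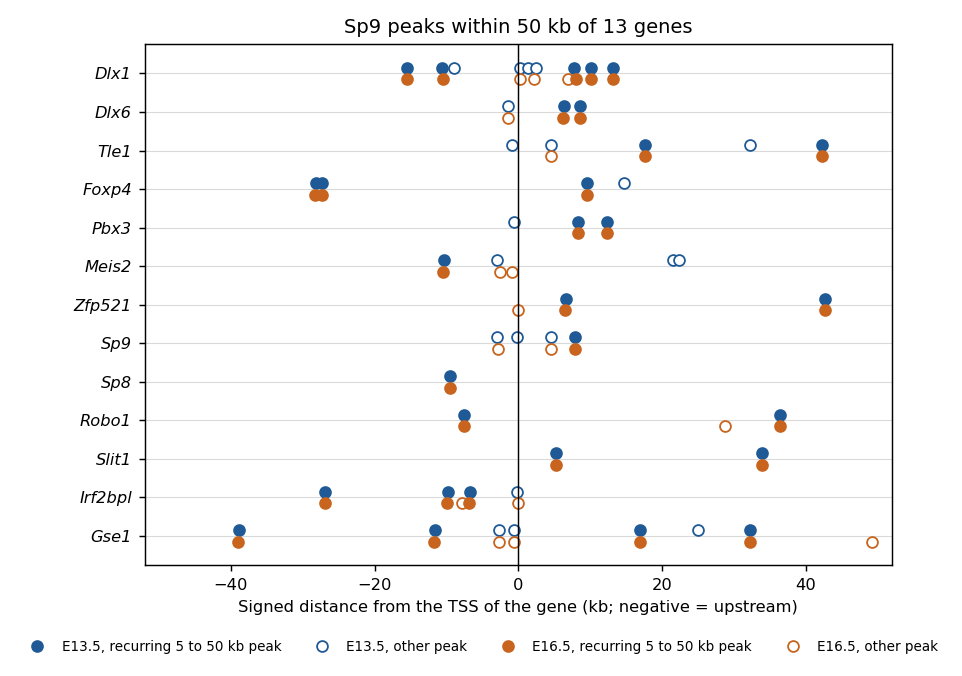
Sp9 peaks within 50 kb of selected genes, by signed distance from the gene's TSS in kb (x axis, negative upstream). Blue points are E13.5 and orange points E16.5. Filled points are recurring peaks whose nearest TSS is 5 to 50 kb away, and open points are all other peaks. Filled points come in pairs by construction, and those of Dlx1 lie on both sides of the gene while both of Dlx6, of Tle1 and of Zfp521 lie downstream.

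Genes of striatal projection neurons were often the nearest gene of a member. Of 19 genes in this list, 8 were the nearest gene of a member (42.1%, 23.1 to 63.7), by the rule at both stages: Bcl11a, Foxp1, Foxp2, Foxp4, Mef2c, Meis2, Pbx3 and Slc32a1. Non-recurring peaks reached 5 of the 19 at E13.5 and 3 at the later stage. The list's 11 members had a median distance of 12.4 kb at E13.5, nearer than the 25.4 kb of all members. Whether that difference exceeds chance was not tested.

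Foxp4, a forkhead repressor, had 3 members, 28169 and 27269 bp upstream and 9522 bp downstream at E13.5. In the E16.5 list they were at 28247, 27269 and 9509 bp, so 1 of them had an identical distance. Another Foxp4 peak in the range, 14776 bp downstream at E13.5, had no partner. Foxp2, a forkhead factor of striatal neurons, had a member 7983 bp downstream at E13.5 against 7957 bp at E16.5, besides promoter peaks 474 and 535 bp upstream. Foxp1 had a single member 38829 bp upstream at E13.5 against 38751 bp at E16.5. All 3 forkhead genes thus had a recurring distal site, on different sides of the gene.

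The TALE homeobox genes Pbx3 and Meis2, which encode partners of other homeodomain factors, both had recurring sites. Pbx3 had members 8291 and 12387 bp downstream at E13.5 and 8294 and 12312 bp at E16.5. Meis2 had a member 10285 bp upstream at E13.5 against 10420 bp at E16.5. Its E13.5 peaks 21561 and 22399 bp downstream had no partner. Bcl11a, a zinc finger repressor, had a member 17527 bp downstream at E13.5 against 17439 bp at E16.5, and a further E13.5 peak at 18079 bp without a partner. Slc32a1, the vesicular transporter that loads GABA, had one 7905 bp upstream at E13.5 against 7853 bp at E16.5. Mef2c, a MADS-box activator, had one 19090 and 19009 bp upstream.

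Some genes of the D1-type and D2-type medium spiny neurons, which carry different dopamine receptors, held members, in similar numbers. Of 9 D1 genes, 3 were the nearest gene of a member at both stages (33.3%, 12.1 to 64.6). Of 10 D2 genes, 4 were (40.0%, 16.8 to 68.7), and these included Sp9, the ChIP target, and its paralogue Sp8. No member had its nearest TSS at the D1 genes Tac1, Pdyn, Chrm4, Sox8 and Slc35d3 or at the D1 receptor gene. The same held for the D2 genes Drd2, Penk, Adora2a, Gpr6 and Gpr52. Non-recurring peaks reached 0 D1 genes and 1 D2 gene at E13.5, and 1 D1 gene and 0 D2 genes at E16.5. Lists of this size leave wide intervals, and the difference between them was not tested.

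Among the D1 genes, Zfp521, a zinc finger regulator, had members 6616 and 42615 bp downstream at E13.5 and 6555 and 42606 bp at E16.5. A peak 22 bp from the Zfp521 TSS was in the E16.5 list only. Isl1, a LIM homeodomain factor of D1 neurons, had its member 12626 and 12605 bp downstream. Ebf1, a helix-loop-helix factor of the same neurons, had one 40001 bp downstream at E13.5 against 40011 bp at E16.5. The D1 receptor gene, listed as Drd1a, was assigned 1 member 523511 bp downstream at E13.5, whose nearest gene was Gm5449 at 6444 bp.

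Among the D2 genes, Oprd1, the delta opioid receptor, had its member at exactly 15058 bp downstream in both lists. Grik3, a kainate receptor subunit, had one 44544 bp downstream at E13.5 against 44597 bp at E16.5. Another Grik3 peak at E13.5, at 43844 bp and so 700 bp from the member, had no partner. Sp9 itself had a member 7908 bp downstream at E13.5 against 7882 bp at E16.5. Its paralogue Sp8 had one 9455 bp upstream at E13.5 against 9442 bp at E16.5. Six3, the homeodomain factor that the study places downstream of Sp8 and Sp9, had no member: its peaks within 100 kb were 92082 bp upstream at E13.5, and 91865 and 5 bp upstream at E16.5.

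Guidance receptors and ligands for growing axons held recurring distal sites too. Of 26 axon guidance genes, 5 were the nearest gene of a member at both stages (19.2%, 8.51 to 37.9), and non-recurring peaks reached 4 at E13.5 and 3 at E16.5. Robo1, a receptor for Slit proteins, had members 7529 bp upstream and 36346 bp downstream at E13.5 and 7546 and 36387 bp at E16.5. Slit1, a ligand of that receptor, had members 5206 and 33973 bp downstream at E13.5 and 5276 and 33867 bp at E16.5. A Robo1 peak 28727 bp downstream at E16.5 had no partner. Both genes had a near and a far member. Plxna2, a semaphorin receptor, had one at 18051 and 18019 bp downstream, with unpartnered peaks 10845 bp downstream at E13.5 and 37632 bp upstream at E16.5, and the netrin receptor gene Unc5c at 40252 and 40208 bp. The semaphorin and VEGF receptor gene Nrp1 had one 30008 and 30048 bp upstream.

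Neural SOX, POU and NFI genes, which act in progenitors and in young neurons, had members at 5 of 17 genes at both stages (29.4%, 13.3 to 53.1). Non-recurring peaks reached 5 of these genes at E13.5 and 3 at E16.5. Each POU gene with a member had a single one. It lay 14925 and 14945 bp downstream of Pou3f1, 9333 and 9440 bp downstream of Pou3f2, and 18157 and 18187 bp upstream of Pou3f3, at E13.5 and E16.5. Nfix had its member 22826 and 22904 bp downstream and Sox5 42440 and 42359 bp upstream. Peaks without a partner lay 26992 bp upstream of Sox5 at E13.5 and 17443 bp downstream of Pou3f3 at E16.5.

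General neuronal genes had members at 4 of 14 (28.6%, 11.7 to 54.6), with non-recurring peaks at 2 at E13.5 and 1 at E16.5. Nrxn3, a synaptic adhesion molecule, had members 10597 bp upstream and 6284 bp downstream at E13.5 and 10522 and 6116 bp at E16.5. Dcx, a microtubule-binding protein of migrating neurons, had one 26379 and 26242 bp downstream, and Elavl4, a neuronal RNA-binding protein, one 22147 and 22245 bp downstream. Dcx and Elavl4 also had promoter peaks at both stages, 191 and 186 bp upstream of Dcx and 103 and 51 bp upstream of Elavl4. Snap25, which takes part in vesicle release, had a member 45693 and 45654 bp downstream. An Elavl4 peak 29344 bp downstream at E13.5 had no partner.

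Some genes of the interneuron lists had members too. The medial eminence and cortical interneuron list had 3 of 15 genes (Wilson interval 7.05 to 45.2%). These were the homeobox gene Gbx1 (31956 and 31957 bp downstream), the neuropeptide gene Npy (6152 and 6125 bp) and Cxcr7, a chemokine receptor of migrating interneurons (5218 and 5170 bp). At E13.5, peaks 29476 and 36671 bp downstream of Gbx1 and 42595 bp upstream of Npy had no partner. Non-recurring peaks reached 4 of the 15 genes at E13.5 and 3 in the later list, the latter as many as the members did. The caudal eminence and olfactory list had 1 of 13 genes (7.69%, 1.37 to 33.3), the serotonin receptor gene Htr3a, with a member 15059 and 15028 bp downstream. Non-recurring peaks also reached 1 of the 13 at E13.5, and 0 at E16.5. Of 15 pallial genes, 1 had a member, the LIM homeobox gene Lhx2, at 6581 and 6566 bp downstream. Non-recurring peaks reached more pallial genes at E13.5, 2 of 15, and 1 at E16.5. Of 23 SP/KLF genes other than Sp8 and Sp9, 1 had a member, Klf7, at 33287 and 33214 bp downstream, and non-recurring peaks reached 0 of them at either stage.

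No member had its nearest TSS at a gene of the remaining lists. These were 16 Notch pathway genes, 7 Id and E-protein genes, 15 cell cycle genes, 8 oligodendrocyte lineage genes, 14 genes of endothelium, microglia and blood, 14 of liver and heart muscle, and 15 housekeeping genes. With a count of 0, the Wilson intervals reach up to 19.4% for the Notch list and 35.4% for the Id list, so shares above the 2.87% of all coding genes are not excluded by counting error. Non-recurring peaks of the same range did reach some of these genes at E13.5: 2 of 8 oligodendrocyte genes, 2 of 14 endothelial, microglial or blood genes, and 1 of 16 Notch genes. At E16.5 they reached 2 of 7 Id and E-protein genes, 1 of 8 oligodendrocyte genes and 1 of 15 cell cycle genes. The rate at which list genes held recurring rather than non-recurring peaks was not tested.

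Some listed genes were the farther gene of a member, which shows how far apart the 2 assignments of a site can be. Of the 16 Notch genes, 2 were assigned members without being nearest. Rbpj, the DNA-binding partner of Notch, was assigned 2 members 313530 and 312335 bp upstream at E13.5 and 313454 and 312355 bp at E16.5, whose nearest gene was Smim20 at 9579 and 10774 bp at E13.5. The other was Mfng, a glycosyltransferase that modifies Notch receptors, with a site 37515 and 37411 bp downstream that lay 17847 bp upstream of Elfn2 at E13.5.

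Homeobox and cell cycle genes gave further cases. Gbx2, a homeobox gene, was assigned a site 76077 bp upstream at E13.5 that lay 5210 bp downstream of Asb18. The cyclin gene Ccne1 was assigned one 68720 bp upstream, which lay 6963 bp from 1600014C10Rik. The member upstream of Sp8 was also assigned to Sp4, 535434 bp away at E13.5. For all of these the E16.5 list gave the same nearest gene. Which of the assigned genes a site acts on, if any, cannot be read from the distances.

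**Figure D5:**
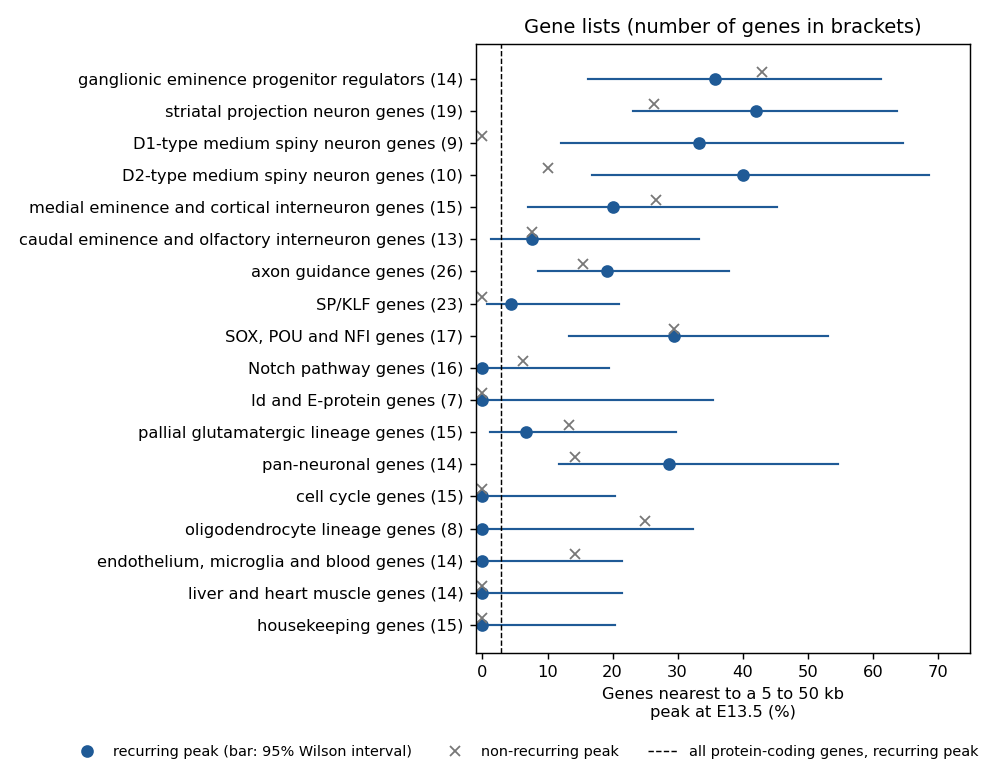
Share of genes in each list (x axis, %) that were the nearest gene of a 5 to 50 kb peak at E13.5. Filled points with 95% Wilson intervals are recurring peaks, crosses are non-recurring peaks, and the dashed line marks the 2.87% of all protein-coding genes nearest to a recurring peak. The striatal list stands at 42.1% and the progenitor list at 35.7%, and the lists at the bottom are at 0.

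The members were spread thinly over genes. At E13.5 they had 678 nearest genes, of which 614 had 1 member and 64 had 2 or more. Of these 678 genes, 620 matched the RefSeq table by symbol and 36 by synonym, 628 were protein-coding there, and 73 names were of predicted or clone type. The genes with the most members were Gm10718 and Gm9874, both predicted genes, with 5 each in either list.

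The members of Gm10718 were evenly spaced and formed the far part of a longer run of peaks. They lay 6630, 8703, 10807, 12509 and 14568 bp downstream at E13.5, between 1702 and 2104 bp apart. At E16.5 they lay between 1841 and 2084 bp apart. The E13.5 list assigned 12 peaks to this gene and the E16.5 list 11. Its other E13.5 peaks were less evenly spaced. They lay 5177, 4280, 1383 and 25 bp upstream and 2140, 3368 and 4386 bp downstream. What gives rise to this dense run was not tested. The members of Gm9874 had gaps from 4825 to 33569 bp at E13.5. Its range held 1 further peak without a partner at E13.5 and 4 at E16.5. Without any gene that held 5 or more 5 to 50 kb peaks in either list, 737 members were left at E13.5 and 734 at E16.5.

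Gse1, which encodes a coiled-coil protein of repressor complexes, came next with 4 members on both sides of its TSS. They lay 38906 and 11650 bp upstream and 16881 and 32288 bp downstream at E13.5, and at 38948, 11683, 16992 and 32234 bp at E16.5. Promoter peaks 540 bp upstream at E13.5 and 611 bp upstream at E16.5 accompanied them. Irf2bpl, an intronless gene for a nuclear regulator, had 3 members, all upstream, at 6750, 9751 and 26833 bp at E13.5 and 6821, 9857 and 26849 bp at E16.5. Lyrm9, whose promoter is shown above with that of Irf2bpl, likewise had 3 upstream members, at 9149, 10167 and 36657 bp at E13.5 and 9169, 10127 and 36759 bp at E16.5. Peaks in the range without a partner lay 25032 bp (E13.5) and 49147 bp (E16.5) downstream of Gse1 and, at E16.5, 7884 bp upstream of Irf2bpl.

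Arl4d and Rhcg also had 3 members each, all downstream. Arl4d, a small GTPase of the ARF family, had them at 15647, 24261 and 30843 bp at E13.5 and 15673, 24331 and 30868 bp at E16.5. These were all the peaks assigned to Arl4d in either list. Rhcg, an ammonium transporter, had them at 25196, 38987 and 40245 bp at E13.5 and 25204, 39007 and 40191 bp at E16.5, besides an unpartnered E13.5 peak at 27160 bp.

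Most genes with a recurring distal site had no peak at their promoter. Of the 678 nearest genes, 46 (6.78%, 5.12 to 8.93) had a promoter peak, within 1 kb of the TSS, at both stages, 19 at E13.5 only, 52 at E16.5 only, and 561 (82.7%) at neither. Counted by stage, promoter peaks were listed for 65 of the 678 genes (9.59%, 7.59 to 12.0) at E13.5 and for 98 (14.5%, 12.0 to 17.3) in the later list. Over all protein-coding genes these shares were 4.93% and 9.42%, and over the 688 genes near non-recurring 5 to 50 kb peaks only, 8.28% and 13.8%. Of those 688 genes, 573 (83.3%) had one at neither stage. Counted by peaks, the nearest gene had a promoter peak in the same list for 88 of 757 members at E13.5 (11.6%) and, in the later list, for 118 of 754 (15.6%). Non-recurring peaks of the same range gave 14.5% at E13.5 and 16.9% at E16.5. Differences were -2.92 points (-6.74 to 0.75, adjusted Fisher's exact p = 0.425) and -1.2 points (-5.67 to 3.02, adjusted Fisher's exact p = 0.751). With lettered entries counted separately, the E13.5 difference was -10.23 points and passed the threshold (adjusted Fisher's exact p = 7.25e-07). Without genes holding 5 or more such peaks it was 0.45 points.

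Other peaks of the same genes recurred at shares close to those of genes without a member. Besides the members, the 678 genes at E13.5 had 794 peaks outside the 5 to 50 kb range, of which 57.1% recurred (53.6 to 60.5). At genes with only non-recurring 5 to 50 kb peaks the share was 57.8% of 514 (53.5 to 62.0). At E16.5 the shares were 64.8% of 701 (61.2 to 68.2) and 64.0% of 328 (58.7 to 69.0). The intervals of the paired shares overlap at each stage.

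Members with another peak nearby, or divided into several entries, made up smaller shares than among non-recurring peaks of the range. Another peak of a shared gene lay within 10 kb for 17.8% of members at E13.5 (15.3 to 20.7) and for 129 of 754 at E16.5 (17.1%). For non-recurring peaks the shares were 21.3% (18.1 to 24.9) and 24.9% (21.1 to 29.2). Division into lettered entries was seen for 14 of 757 members (1.85%, 1.1 to 3.08) against 20 of 550 other peaks (3.64%, 2.37 to 5.55) at E13.5. At E16.5 it was 8 of 754 (1.06%, 0.539 to 2.08) against 21 of 445 (4.72%, 3.11 to 7.11). Both measures were chosen after the lists had been seen and were not tested.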

How the data were processed

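Sp9 ChIP-seq peak lists of basal ganglia at E13.5 and E16.5 were used, 1 ChIP library per stage; the inputs entered only through the authors' calling. Tools named in the submitters' processing notes are MACS2 2.1.0, BWA 0.6.2, bcl2fastq 1.8.4 and CASAVA 1.8.2, and the build is mm9; thresholds for calling peaks are not given in sources used here. Gene assignment by the authors, per the file headers, used domains of 5000 bp upstream and 1000 bp downstream, extended up to 1000000 bp. The deposited values are text that pairs peak numbers with signed TSS distances in bp; they are positions, not a score or other measure of binding. Sequencing depth is unknown, so precision rests on the number of peaks.

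Entries of a peak number that differ only by a letter were counted as 1 peak. Shares carry 95% Wilson intervals and differences Newcombe intervals; these cover counting error only, and neighbouring peaks are not independent. The 3 properties tested in 2 lists used Fisher's exact test, two-sided, with Benjamini-Hochberg adjustment and a threshold of 0.05. The matching code was checked on simulated lists. Simulated peaks moved either well within the 200 bp limit or far beyond it, so shifts near that limit were not checked. Computation used numpy 2.4.6, scipy 1.17.1 and matplotlib 3.10.9 under Python 3.11.15, and names were matched to RefSeq (GRCm38.p6). The members and the 18 gene lists were chosen with earlier results of these data known. The naming rule took Sp8, Sp9 and Six3, the 10 genes with the most members, up to 4 genes per list with the most assigned members, and the peaks nearest to each limit. Not every list gene with an assigned member is described. Tle1, Bcl11a, Foxp1, Mef2c, Meis2, Nrp1 and Sox5 were named after their values were seen. 1 gene of these lists is not reported here.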

Additional observations from a re-analysis of the deposited data

Results flagged for a closer look

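The upstream share of recurring peaks minus that of non-recurring ones differed in sign between the lists, 0.49 percentage points at E13.5 and -3.12 points at E16.5. Recurring peaks, which the rule pairs across the lists, had nearly the same share in both (41.2% and 41.4%). The non-recurring share was 40.7% at E13.5 and 44.5% at E16.5. Neither difference passed its own test, and the difference between the stages was not tested.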

How the results depend on the processing

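The number of recurring peaks stayed within 1.5 times its reported value under all 7 alternatives, from 650 to 799 at E13.5 and from 648 to 793 at E16.5, and so did the number of nearest genes (595 to 702 over both lists). Matching through the nearest gene only gave the same counts, 757 and 754. This setting could hardly change them, since the span between the start sites of paired genes was the same in both lists. Of 46 tested differences under other settings, 3 passed the threshold, all with lettered entries counted separately: assignment to 2 genes at 5.56 points (E13.5) and 9.52 points (E16.5), and promoter peaks at the nearest gene at -10.23 points (E13.5). Entries of 1 peak repeat its position, so this setting counts the same peak several times. Differences that did not pass changed sign in 6 cases. The upstream difference became -2.25 points with matching within 100 bp (E13.5) and 2.04 points with lettered entries (E16.5). The promoter difference became 0.45 points without genes holding 5 or more such peaks (E13.5). At E16.5 it became 1.91 points with a lower limit of 10 kb, 1.92 points with lettered entries and 0.13 points with promoters within 500 bp. The cause of these sign changes was not tested. A stricter peak threshold was not run, since the lists give no peak scores. No paired analysis was possible because each stage has 1 ChIP library.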
